A study of Mus musculus with 16 samples.

Results

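The precipitation of astrocyte ribosomes was compared between mice given a calcium pump and mice given a control protein, gene by gene. For each of 8 mice, the log2 level of a gene in whole striatal lysate (input) was subtracted from its log2 level in RNA bound to tagged astrocyte ribosomes (immunoprecipitate, IP). This difference is called the enrichment: 1 unit is a doubling, positive values mark RNA more abundant on astrocyte ribosomes than in the tissue, and negative values mark RNA depleted there. The 4 enrichments of the PMCA mice were then set against the 4 of the control mice. All 16 libraries of the series entered the comparison, and 8091 of the 13277 listed genes held enough reads to be tested.

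The animals were adult mice from a cross of RiboTag mice, kept on a B6 background, with Aldh1l1-Cre/ERT2 mice, derived from FVB and backcrossed to C57BL/6N. All 8 mice came from this cross, so the tagged ribosomal protein is found where the inducible Cre was active under Aldh1l1, a gene of astrocytes. The control group (mice Y481, Y482, Y483 and Y485) received an adeno-associated virus (AAV) for a control protein. The PMCA group (mice Y486, Y487, Y489 and Y490) received an AAV for hPMCA2w/b, a human plasma membrane calcium pump that suppresses calcium signals. Whole striata were taken, and the promoter of the virus, the induction of Cre, the sex and the interval after injection are not known here. Libraries held 198462 to 686343 reads over the listed genes, few enough that 1 read was worth 1.59 to 4.46 CPM, the level scaled to library size. The control inputs of Y481 (198462 reads) and Y482 (225349 reads) were the shallowest of all.

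Astrocytes are glial cells that take up glutamate, potassium and GABA around synapses, supply metabolites to neurons and contact blood vessels with their endfeet. Their main signal is a rise of calcium in the cytosol, released from the endoplasmic reticulum or entering through the plasma membrane, and plasma membrane calcium ATPases (PMCAs) end it by pumping calcium out of the cell. RiboTag places an epitope on a protein of the large ribosomal subunit in cells with Cre activity. Pulling on the epitope recovers messenger RNA with the ribosomes of those cells, together with some RNA of other cells that sticks to the beads. A gene can therefore change its enrichment through its level in the precipitate, in the tissue lysate, or in both, and these parts are given for the genes and lists described in most detail.

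The enrichment of 3 genes was higher in the PMCA mice at an adjusted p under 0.05 (limma with the mouse as a term, Benjamini-Hochberg over 8091 genes), which is 0.0371% of those tested, and that of 0 genes was lower (0%), as also with limma's voom weights. The 3 genes were Atp2b2, 9430020K01Rik and Peg3. At an unadjusted p under 0.05 in the same limma test, 186 genes had a higher enrichment (2.3% of those tested) and 254 a lower one (3.14%). Over all tested genes the median difference was -0.03 on the log2 scale and 47.3% of the genes had a positive one. A typical gene was measured with a standard error (SE) of 0.51, so that differences of less than about a doubling were mostly not detectable at this depth. Much larger ones could also fail the adjusted test: Asns (-3.26), Dkc1 (2.39) and Trim30a (-2.34) did not pass. A gene not called is therefore not shown to be unchanged. The called genes depended on how the spread of each gene was estimated. With a variance that neither followed the expression level nor was robust to outlying genes, 0 genes were called and the adjusted p (limma) of the top pair was 0.258.

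**Figure D1:**
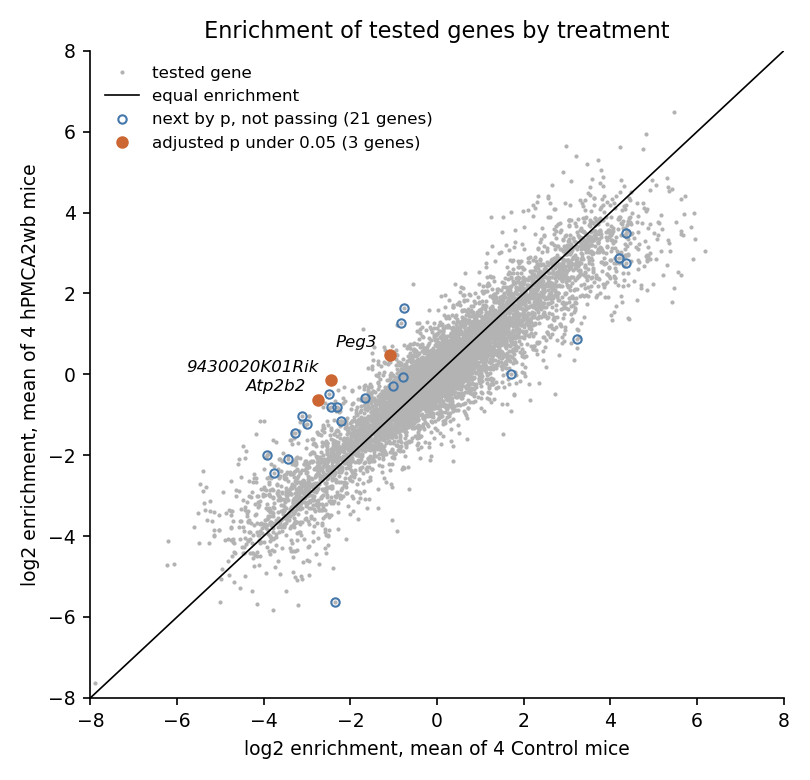
Mean log2 enrichment (IP minus input) of 8091 tested genes in the 4 control mice (horizontal axis) and the 4 PMCA mice (vertical axis), with a line of equal enrichment. The 3 genes with an adjusted p under 0.05 lie above the line among genes depleted in the control precipitate, and the 21 genes next in order of p are open circles.

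Atp2b2 encodes PMCA2, the mouse counterpart of the pump carried by the virus, and lies on chromosome 6 (113743831 to 114042613, mm10). In the control mice its enrichment was -2.44 in Y481, -2.89 in Y482, -2.98 in Y483 and -2.65 in Y485. In the PMCA mice it was -0.15 in Y486, -0.87 in Y487, -0.42 in Y489 and -1.07 in Y490. All 4 PMCA values lay above all 4 control values, yet each stayed below 0, so the RNA was still less abundant on the astrocyte ribosomes than in the lysate. The mean rose from -2.74 ± 0.24 to -0.63 ± 0.42 (SD, n = 4 each), a difference of 2.11 with an SE of 0.20 and an adjusted p (limma) of 1.11e-06. Nearly all of it came from the precipitate, where Atp2b2 differed by 2.08 log2 units between treatments, against -0.03 in the input. In reads, the 4 control IP libraries held 443 and the 4 PMCA IP libraries 1971, while the inputs held 1875 and 2091. Reads of the human transgene that align to the mouse gene and reads of the mouse gene itself cannot be told apart in these counts.

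9430020K01Rik, whose current symbol is Jcad, encodes a protein of endothelial cell junctions and lies on chromosome 18 (4590792 to 4682869). Its enrichment, here and below in order of the mouse numbers, was -1.96, -2.96, -2.70 and -2.21 in the control mice. With PMCA it was -0.31, -0.49, 0.15 and 0.05, again without overlap. The mean rose from -2.46 ± 0.45 to -0.15 ± 0.30 (SD, n = 4 each), by 2.30 with an SE of 0.24 (adjusted p = 6.53e-06, limma). The precipitate differed by 2.19 between treatments (203 against 816 reads) and the input by -0.11 (659 against 697 reads). Of 11 endothelial markers 2 had enough reads to be tested, and the IP reads of the others were few in both groups. Cldn5, a tight junction protein, held 2 control and 0 PMCA reads there, and Kdr, another receptor of the vessel wall, 12 and 20. Flt1, a receptor for vascular endothelial growth factor, differed by 0.96 with an SE of 1.17, and Slco1c1, a thyroid hormone carrier that astrocytes also express, by -0.29 with an SE of 0.39.

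Peg3, a paternally expressed imprinted gene for a zinc finger protein, lies on chromosome 7 (6703892 to 6730462). Its enrichment was -0.75, -1.97, -1.09 and -0.57 in the control mice. With PMCA it was 0.08, 0.38, 0.86 and 0.54. The RNA was depleted in every control precipitate and slightly enriched in every PMCA one. The mean rose from -1.09 ± 0.62 to 0.47 ± 0.33 (SD, n = 4 each), by 1.56 with an SE of 0.27 (adjusted p = 0.017, limma). The precipitate differed by 1.45 (379 against 942 reads) and the input by -0.11 (491 against 523 reads). Peg3 is the least stable of the 3 calls: its adjusted p (limma) was 0.0513 without mouse Y482, 0.0956 without Y483, 0.0811 without Y487, 0.219 without Y489 and 0.0888 without Y490. Of the other 12 tested imprinted genes, 7 had a positive and 5 a negative difference and 0 were called. Meg3 (a long noncoding RNA) and Gnas (a G protein subunit), differed by 0.68 with an SE of 0.55 and by 0.08 with an SE of 0.19. For each of the 3 called genes alone, an exact two-sided permutation test over the 70 ways to divide the mice gave p = 0.0286, the smallest that 4 against 4 mice allow. The genes were chosen from the same values and their groups do not overlap, so this p adds no support to the limma test. Any of the 125 higher and 154 lower genes without overlap among the 8091 tested would reach it.

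**Figure D2:**
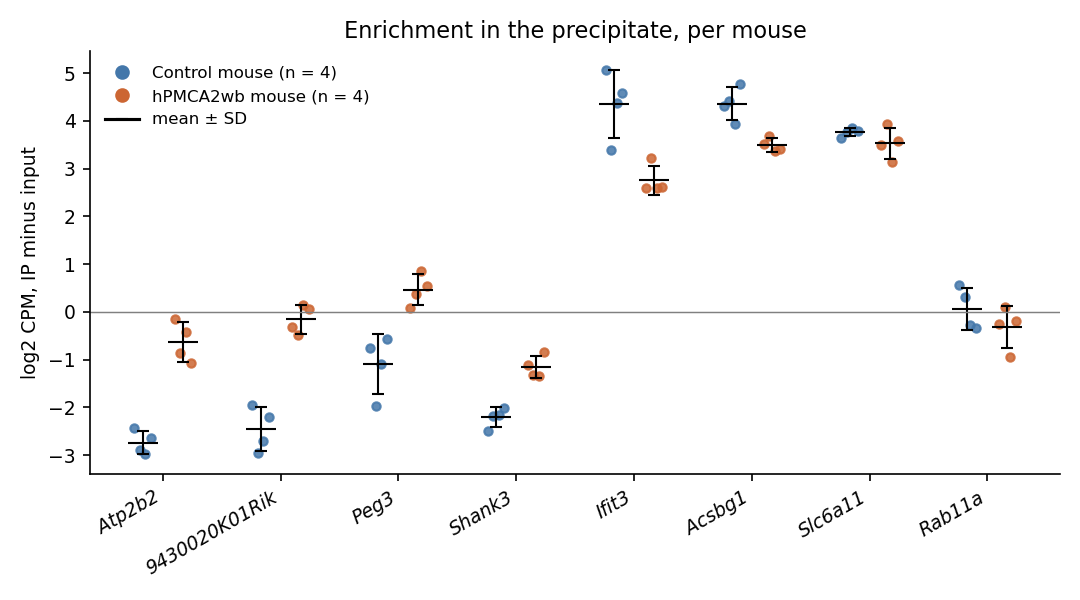
Enrichment (log2 CPM, IP minus input) of 8 genes in each of the 4 control and 4 PMCA mice, with the mean and SD. Atp2b2, 9430020K01Rik and Peg3 separate upward, Shank3 upward and Ifit3 and Acsbg1 downward without passing the adjusted test, and Slc6a11 and Rab11a overlap.

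The next 21 genes in order of p did not pass, with adjusted p (limma) from 0.307 to 0.677. Of these 24 genes in all, 18 had a higher enrichment with PMCA and 6 a lower one, and in 22 the mice did not overlap. Across all tested genes the mice did not overlap in 125 with a higher enrichment (1.54%) and 154 with a lower one (1.9%). All 18 higher genes were depleted in the control precipitate, and in 17 of them the larger part of the difference lay in the IP. Among all 3826 tested genes with a positive difference these shares were 62.9% and 56.4%. Of the 6 lower genes, 5 were enriched in the control precipitate, and in 5 the larger part of the difference lay in the input, against 65.1% and 51.4% of all genes with a negative difference. Control enrichment is part of the difference that ranked these genes, so the counts are a description with no test.

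Among the higher ones were 3 genes of neuronal signalling. Shank3, a scaffold of excitatory synapses, had enrichments of -2.50, -2.18, -2.16 and -2.0 in the control mice and -1.12, -1.31, -1.34 and -0.84 in the PMCA mice. The groups stood apart by 1.05 with an SE of 0.26 (adjusted p = 0.46, limma). Dlgap2, which binds the scaffolds of the postsynaptic density, differed by 1.63 with an SE of 0.39 (adjusted p = 0.417, limma), with 43 control and 124 PMCA reads in the IP. Cacnb1, a subunit of voltage-gated calcium channels, differed by 1.34 with an SE of 0.39. Dusp8 (a phosphatase of MAP kinases), Mink1 (a kinase) and Caln1 (a calmodulin-like protein) differed by 1.93, 0.74 and 1.32.

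Ccnk (a cyclin of transcription) and Dkc1 (a pseudouridine synthase of small nucleolar RNPs) went from depleted in all 4 control mice to enriched in all 4 PMCA mice. Ccnk had -1.52, -1.17, -0.41 and -0.22 in the control and 0.50, 1.06, 2.37 and 1.15 in the PMCA mice. It was the gene of the 18 with its larger difference in the input (-1.62 against 0.48 in the IP), where it held 78 control and 33 PMCA reads. Dkc1 rested on 47 control and 25 PMCA input reads, and its difference of 2.39 had an SE of 0.65. Sh3bgrl3, Prrc2b, Stk32c and Zswim6 completed the higher genes outside the complement family, at 2.0, 0.73, 1.84 and 1.07.

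The lower genes were led by Ifit3 and Trim30a, both induced by interferon. Asns, the asparagine synthetase induced when amino acids run short, was the 1 lower gene with the larger part of its difference in the IP. It held 30 reads in the control IP and 3 in the PMCA IP, and 109 and 134 in the inputs. Its enrichment was -0.69, -2.04, -3.14 and -3.59 in the control mice and -5.41, -5.38, -7.24 and -4.46 in the PMCA mice, and the difference of -3.26 had an SE of 0.81 (adjusted p = 0.46, limma). The PMCA values rest on 0 or 1 read per IP library. Acsbg1, an acyl-CoA synthetase of astrocytes, had the most IP reads of these, 2482 control and 1907 PMCA, but only 77 and 131 input reads. Its level differed by -0.30 in the IP and by 0.56 in the input. Its enrichment was 4.32, 4.42, 3.93 and 4.76 in the control and 3.51, 3.69, 3.37 and 3.41 in the PMCA mice. The difference of -0.86 had an SE of 0.23 (adjusted p = 0.575, limma). Ctso, a lysosomal cysteine protease, and Txnl1, a thioredoxin-like protein, differed by -1.31 and -1.68.

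**Figure D3:**
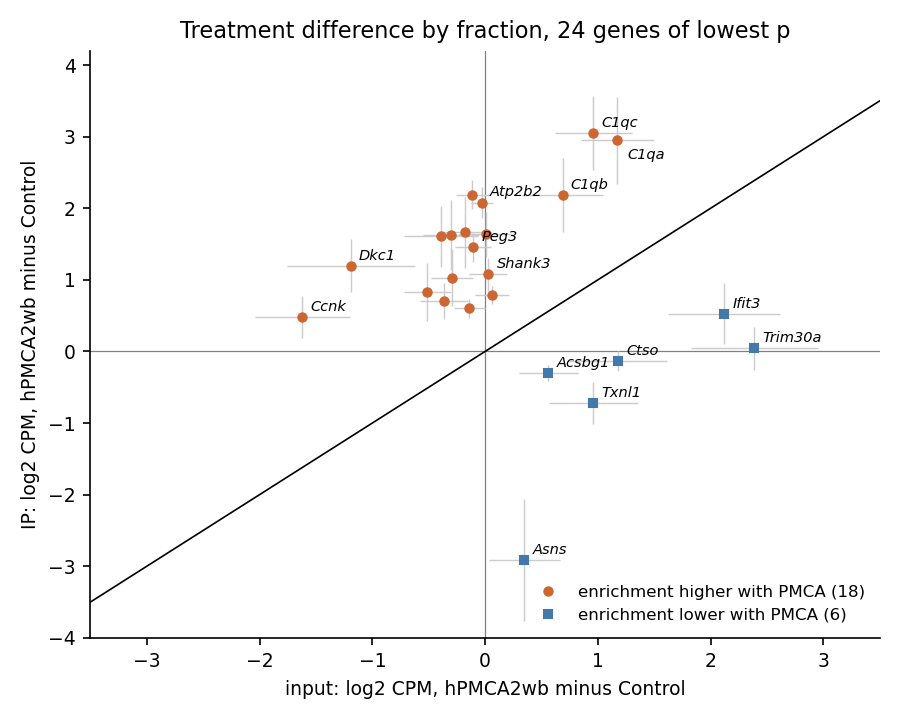
Difference between PMCA and control mice in log2 CPM within the input (horizontal axis) and within the IP (vertical axis) for the 24 genes of lowest p, with standard errors as grey lines and a line of equal difference. Atp2b2 and Peg3 lie near 0 on the input axis and high on the IP axis, Ifit3, Trim30a and Ctso extend to the right along the input axis, and Ccnk and Dkc1 to the left.

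Genes that move calcium were examined as a group. Of the 8 plasma membrane pumps and sodium-calcium exchangers, all tested, 6 had a positive and 2 a negative difference, with a median of 0.64 against -0.03 for all genes (0.39 with a prior count of 2), and Atp2b2 was the 1 member called. The list is depleted in the IP, and the 935 tested genes with a mean enrichment below -2 had a median difference of 0.19, with 62.8% positive. Atp2b1, which encodes PMCA1, had -3.04, -2.68, -2.30 and -2.42 in the control and -2.50, -2.39, -2.14 and -2.0 in the PMCA mice. These overlap, and the difference of 0.35 had an SE of 0.18 (adjusted p = 0.891, limma). The interval of the Atp2b2 difference, 1.71 to 2.52 (95% confidence), did not reach that value. Genes of calcium store release and entry had 12 positive and 3 negative differences with a median of 0.30 (0.11 without Y486 and 0.16 without Y489), and 0 of 15 had an unadjusted p under 0.05. Atp2a2, the pump that refills the endoplasmic reticulum, and Itpr1, a receptor that releases calcium from it, differed by 0.05 with an SE of 0.16 and by 0.32 with an SE of 0.17. Among 20 calcium sensors and effectors the median was 0.13 (0.21 without Y486). Ppp3ca, a calcineurin subunit, differed by 0.20 with an SE of 0.16. Camk2b and Camk2g, subunits of the calmodulin-dependent kinase II, differed by 0.50 and -0.67 at unadjusted p under 0.05.

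Slc6a11, the GABA transporter GAT-3 of astrocytes, and Rab11a, a GTPase of recycling endosomes, bear on how astrocytes clear GABA. Slc6a11 had 3.65, 3.76, 3.86 and 3.78 in the control mice and 3.49, 3.93, 3.13 and 3.58 in the PMCA mice. The groups overlapped, and the difference of -0.23 had an SE of 0.22 (adjusted p = 0.91, limma). Rab11a had 0.56, 0.32, -0.28 and -0.34 in the control and -0.25, 0.10, -0.95 and -0.18 in the PMCA mice, a difference of -0.38 with an SE of 0.33 (adjusted p = 0.899, limma). Over 17 genes of endosomal recycling, 5 were positive and 12 negative with a median of -0.12 (-0.25 without Y483, -0.20 without Y486 and -0.06 without Y485). Over 18 genes of GABA and glutamate handling, 6 were positive and 12 negative with a median of -0.16 (-0.10 without Y489), while the per-mouse median over this list differed by 0.27, of the opposite sign. The glutamate transporter Slc1a2, with 118911 control and 108893 PMCA reads in the IP, had 4.24, 4.26, 4.41 and 4.41 against 3.84, 4.25, 4.03 and 4.25. Its difference of -0.24 had an SE of 0.09 and did not pass (adjusted p = 0.878, limma). The glutamine transporter Slc38a3 differed by -0.97 with an SE of 0.31, and the input held 31 control and 78 PMCA reads of it.

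Markers of astrocytes bore out the precipitation in both groups. All 30 were tested, and their median enrichment lay between 3.67 and 3.86 in the control mice and between 3.38 and 3.80 in the PMCA mice. None was at 0 in any IP library. Among the 963 tested genes with a mean enrichment above 2, the median difference was -0.30 and 31.4% were positive. Of the 30 markers, 23 had a negative and 7 a positive difference, the median was -0.23, and 0 were called. Over them, the median treatment difference was -0.13 in the IP and 0.20 in the input, and their summed level in the input was 8718 to 9153 CPM in the control and 9447 to 10780 CPM in the PMCA mice, without overlap. In these bulk libraries, more astrocytes and more of each RNA per astrocyte cannot be told apart. Aqp4, the water channel of endfeet, and S1pr1, a sphingosine phosphate receptor, differed by -0.50 and -0.44 at unadjusted p under 0.05. Glul, the glutamine synthetase, and Gja1, the gap junction protein connexin 43, differed by -0.23 and 0.03.

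The median enrichments of general neuronal and of oligodendrocyte markers lay below 0 in every mouse and overlapped between the groups. The median enrichment of 18 general neuronal markers lay between -3.74 and -3.35 in the control and between -3.84 and -2.88 in the PMCA mice, and that of 10 oligodendrocyte markers between -4.10 and -3.12 and between -3.86 and -2.86. Markers of oligodendrocyte precursors did not overlap: their median over the 6 tested of 9 was -3.66 to -2.90 in the control and -2.84 to -2.01 in the PMCA mice. Without the filter on low reads the groups differed less in this median, as given at the end. Of the 6, 5 had a positive and 1 a negative difference, with a median of 1.24 (0.47 with a prior count of 2) and 0 called. They rest on few reads: Pdgfra, the growth factor receptor that defines these cells, held 6 control and 11 PMCA reads in the IP and 65 and 80 in the input. Olig1 and Olig2, transcription factors of the lineage, differed by 1.28 with an SE of 0.47 and by -1.52 with an SE of 0.86. The striatal projection neuron genes Pde10a, a phosphodiesterase, and Ppp1r1b, which encodes DARPP-32, differed by 0.17 with an SE of 0.16 and by 0.22 with an SE of 0.18. The 15 postsynaptic scaffold genes had 11 positive and 4 negative differences with a median of 0.34, and their median per mouse did not overlap (-2.64 to -2.0 in the control, -1.71 to -0.84 in the PMCA mice). For comparison, 62.8% of the 935 tested genes with a mean enrichment below -2 had a positive difference, with a median of 0.19. Of the 2999 from -2 to 0 it was 52.55%, with a median of 0.04. The medians per mouse of the calcium pumps and exchangers did not overlap either. They were higher with PMCA, at -2.335 to -1.589 against -2.553 to -2.409 in the control mice. Those of gap junction and endfoot genes did not overlap but were lower with PMCA, at 2.63 to 2.997 against 3.06 to 3.512. The tested genes of this last list had 5 positive and 5 negative differences. Their median of -0.01 changed sign without Y483, Y486 or Y489 and with median-of-ratios sizes. How often list medians separate by chance was not tested. Shank2 differed by 1.47 with an SE of 0.46, while Dlg4, which encodes PSD-95, and Dlg2 differed by 0.29 and 0.14. The summed level of the general neuronal markers in the IP was 875 to 1265 CPM in the control and 947 to 1323 CPM in the PMCA mice, and its part in these values was not tested.

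On average, the enrichments of the PMCA mice rose a little less steeply with the mean enrichment over both treatments. The control mouse Y485 and the PMCA mouse Y487 were level in this. When each mouse's enrichments were regressed on the mean over both treatments, the slope was 1.09 in Y481, 1.10 in Y482, 1.01 in Y483 and 0.995 in Y485, and 0.944 in Y486, 0.995 in Y487, 0.962 in Y489 and 0.908 in Y490. These slopes average 1 by construction. The mean was 1.05 ± 0.055 in the control and 0.952 ± 0.036 in the PMCA mice (SD, n = 4 each), and the exact two-sided permutation test gave p = 0.0571. The steepest slopes belonged to the 2 control mice with the shallowest inputs, and over the 1677 genes with a mean of 50 or more reads the difference was -0.072 in place of -0.096. Depth and treatment were not separated further. The same tilt appears by class: the median difference was 0.19 among the 935 genes with a mean enrichment below -2, 0.04 and -0.08 among those from -2 to 0 and from 0 to 2, and -0.30 among the 963 genes above 2.

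**Figure D4:**
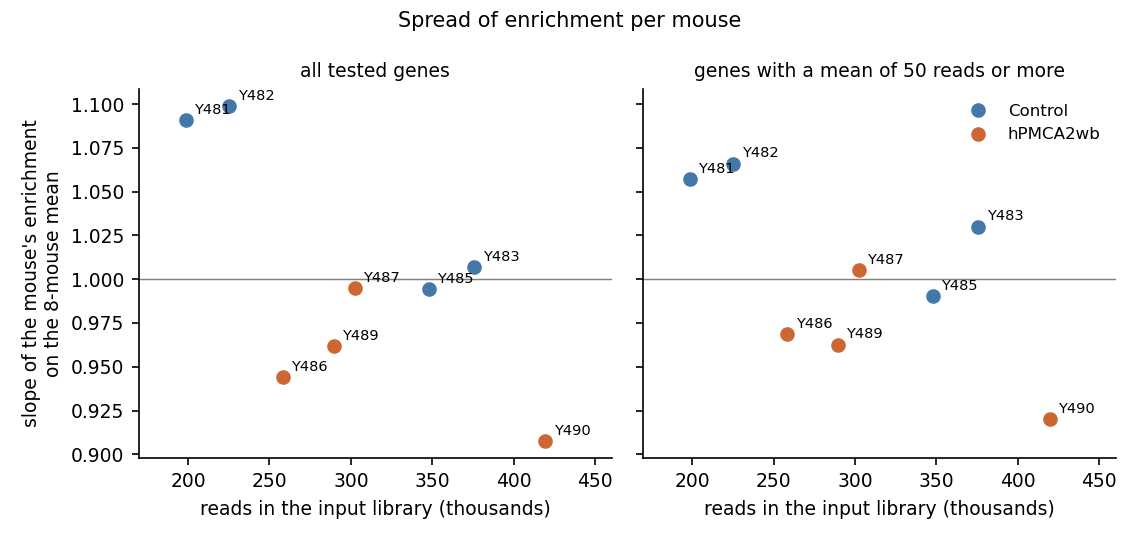
Slope of each mouse's enrichments on the mean over both treatments (vertical axis) against the reads in its input library (horizontal axis), over 8091 tested genes on the left and 1677 well-read genes on the right. The control mice Y481 and Y482 have the shallowest inputs and the steepest slopes, 1.09 and 1.10 over all tested genes, and Y490 has the deepest input and the lowest slope, 0.908.

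By classes of 2-fold enrichment, 1617 genes were enriched in both groups, 444 in the control mice alone and 231 in the PMCA mice alone. Likewise 1537 genes were depleted at least 2-fold in both, 307 in the control mice alone and 241 in the PMCA mice alone. Only 2 of the tested genes went from one class to the opposite one, Tmem14a from 1.52 to -1.47 and Wdr24 from -1.71 to 1.13. Neither passed (adjusted p = 0.878 for each, limma), and both were chosen for this after their values were seen.

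Microglia, the macrophages of the brain, take part in complement and in the removal of synapses. Of 19 markers 12 were tested, of which 9 had a positive and 3 a negative difference, with a median of 0.61 and 0 called. The per-mouse median over the 12 differed by 0.81 between treatments, and over all 19, without the filter on low reads, by 1.13. It lay between -2.09 and -1.79 in the control and between -1.43 and -0.88 in the PMCA mice, so the groups did not overlap, and the RNA stayed depleted in all. The summed level of the 12 reached higher values with PMCA in both fractions, with ranges that overlap: it was 181 to 441 CPM in the control and 425 to 1407 CPM in the PMCA precipitates, and 666 to 1158 and 933 to 2252 CPM in the inputs. The part of microglial RNA in other results was not tested.

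The genes of the complement component C1q stood at the head of this group. C1qc had -1.75, -4.05, -2.98 and -3.68 in the control mice and -1.31, -1.34, -1.24 and -0.21 in the PMCA mice. Its IP reads numbered 13 in the control and 98 in the PMCA libraries, and its input reads 71 and 159. The difference in enrichment was 2.09 with an SE of 0.56 for C1qc, 1.5 with an SE of 0.43 for C1qb and 1.78 with an SE of 0.51 for C1qa (adjusted p from 0.594 to 0.677, limma). Ctss, the microglial cathepsin S, and Csf1r, the receptor that microglia need to survive, differed by 0.70 and 0.52. Over the 10 tested complement genes in all, 4 differences were positive and 6 negative, with a median of -0.20 whose sign changed without Y481, with a prior count of 2 and with voom. C4b, a component of the classical pathway, with 1662 control and 2423 PMCA reads in the IP, differed by -0.67 with an SE of 0.22, and C3, on which the pathways converge, by -0.79 with an SE of 0.43. For both the level was higher with PMCA in the IP (0.68 and 1.95) and more so in the input (1.36 and 2.73).

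Targets of the transcription factor p53, which is stabilised by DNA damage and stress, had the lowest median of the function lists, -1.10 over the 12 tested of 18 (-0.71 without Y481). Of these, 11 were negative and 1 positive, and 0 were called. An unadjusted p under 0.05 with a negative difference was found for 5, against 3.14% of all tested genes. They were Sesn2, Cdkn1a, Ccng1, Trp53inp1 and Mdm2, the last pair named after their values were seen. Among the 963 tested genes with a mean enrichment above 2, 92 were lower at such a p, and 31.4% had a positive difference. The median enrichment of the p53 targets per mouse was 1.75 to 2.75 in the control and 0.57 to 1.04 in the PMCA mice. Cdkn1a, the cell cycle inhibitor p21, had 4.90, 3.42, 1.84 and 1.40 in the control and 0.31, 0.60, 1.13 and 1.06 in the PMCA mice. The PMCA values lay below all control ones, and the difference of -2.12 had an SE of 0.73 (adjusted p = 0.805, limma). It came from the IP, with 216 control and 44 PMCA reads, against 22 and 18 in the input. Ccng1 (cyclin G1) had 2.46, 1.98, 2.30 and 1.67 in the control and 1.48, 1.41, 1.64 and 0.57 in the PMCA mice, a difference of -0.83 with an SE of 0.29. Mdm2, the ligase that degrades p53, and Trp53inp1, a cofactor of p53, differed by -1.36 and -1.53. Zmat3, a zinc finger protein, differed by -0.03 with an SE of 0.29. Sesn2, a stress-induced regulator of growth signalling, held 0 reads in the control inputs and 5 in the PMCA inputs, so that its fitted value depends on the prior count. With Sesn2 set at a floor of 3 reads over its group the list median was -0.96.

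Interferon-induced genes encode antiviral proteins and are switched on when interferons bind their receptors. Of the 30 genes of the list 27 were tested, of which 20 had a negative and 7 a positive difference in enrichment, with a median of -0.47 (-0.31 with a prior count of 2) and 0 called. For comparison, the 963 tested genes with a mean enrichment above 2 had a median difference of -0.30, and 31.4% of them a positive one. An unadjusted p under 0.05 was found for 6 members with a negative and 1 with a positive difference, against 3.14% and 2.3% of all tested genes. The mean level was higher with PMCA in the IP for 25 and in the input for 26 of the 27, with median differences of 0.62 and 0.94. The summed level overlapped between the groups: 2417 to 7850 CPM in the control and 4582 to 9946 CPM in the PMCA precipitates, and 450 to 1283 and 1056 to 2326 CPM in the inputs. Per mouse the median enrichment was 1.82 to 2.70 in the control and 1.73 to 2.12 in the PMCA mice, which overlap.

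Ifit3, an antiviral protein that binds foreign RNA complexes, had 5.07, 3.38, 4.38 and 4.59 in the control mice and 2.60, 3.22, 2.59 and 2.62 in the PMCA mice. The difference of -1.60 had an SE of 0.35 (adjusted p = 0.307, limma). It lay in the input, which held 3, 9, 6 and 2 reads in the control and 21, 15, 35 and 23 in the PMCA mice, while the IP held 668 and 846 reads in all. Without the control mouse Y482 the difference was -1.92 and passed (adjusted p = 0.0371, limma), which made 1 lower gene, and over all alternatives its adjusted p ran from 0.0371 to 0.913. Trim30a, a ubiquitin ligase family member, had 3.32, 4.03, 2.70 and 2.84 against 0.70, 0.60, 2.06 and 0.16, with 9 control and 55 PMCA input reads and 140 and 151 in the IP. Isg15, a ubiquitin-like modifier, was the 1 member of opposite sign with an unadjusted p under 0.05. It had 1.36, 1.20, 0.40 and 2.02 against 5.53, 2.29, 2.40 and 5.38, and its inputs held only 11 and 4 reads, with 0 in Y486 and Y490, whose values depend on the prior count. Gbp2, a GTPase, differed by -0.47 with an SE of 0.20.

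The promoters of these 3 genes are shown because the family shares a short regulatory word, the core of the interferon-stimulated response element. The word GAAA, then any 2 bases (NN), then GAAA again was searched on both strands (on the other strand TTTC, NN, TTTC) in windows of 300 bases, 250 before to 50 after the start of each gene, from RefSeq (GRCm38.p6). Of the 27 tested members 22 were in the RefSeq table, and 13 of them (59.1%) held at least 1 match, compared with 231 of 6136 tested genes in the table (3.76%) and 3.44% of all 32851 promoters. Capitals mark the matches, which may overlap each other. The windows are chr19:34583279-34583578 on the plus strand for Ifit3, chr7:104465144-104465443 on the minus strand for Trim30a, at 1 of its 2 listed starts, and chr4:156200769-156201068 on the minus strand for Isg15. Each is written 5′ to 3′ in the direction of the gene.
Ifit3: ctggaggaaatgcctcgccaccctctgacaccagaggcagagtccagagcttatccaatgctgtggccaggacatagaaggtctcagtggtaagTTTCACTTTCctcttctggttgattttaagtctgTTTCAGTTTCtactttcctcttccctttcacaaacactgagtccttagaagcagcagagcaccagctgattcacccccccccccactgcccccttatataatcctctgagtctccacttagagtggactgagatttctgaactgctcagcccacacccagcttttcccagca
Trim30a: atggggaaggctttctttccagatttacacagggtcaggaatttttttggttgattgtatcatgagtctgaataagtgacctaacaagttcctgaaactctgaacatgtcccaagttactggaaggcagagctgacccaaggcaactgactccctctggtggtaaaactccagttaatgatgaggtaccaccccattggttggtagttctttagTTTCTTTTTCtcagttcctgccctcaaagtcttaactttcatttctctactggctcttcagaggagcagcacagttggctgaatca
Isg15: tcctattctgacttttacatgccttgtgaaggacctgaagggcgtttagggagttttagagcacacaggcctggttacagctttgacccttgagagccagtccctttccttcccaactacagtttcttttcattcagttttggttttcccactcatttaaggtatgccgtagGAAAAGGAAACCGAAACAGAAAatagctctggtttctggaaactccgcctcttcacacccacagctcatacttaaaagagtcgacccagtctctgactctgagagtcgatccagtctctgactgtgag
Ifit3 holds 2 matches, Trim30a 1 and Isg15 3 that overlap, so the word is present in members whose enrichment differences had either sign. A match is a description of the sequence and says nothing about binding.

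Antigen presentation genes, many of them interferon-induced, differed in sign. The transporters that load peptides, Tap1 and Tap2, differed by -1.62 with an SE of 0.55 and by -1.75 with an SE of 0.51. The presenting chains H2-K1 and B2m differed by 0.27 and 0.19, and Cd74, the invariant chain of class II molecules, by 0.88 with an SE of 0.29. In all 13 genes the mean level was higher with PMCA in both the IP and the input, and 0 were called in the difference. Their summed level overlapped between the groups: 1071 to 4470 CPM in the control and 4131 to 10580 CPM in the PMCA precipitates, and 363 to 1671 and 1125 to 3605 CPM in the inputs. Among 15 tested of 25 genes of reactive astrocytes, 4 were positive and 11 negative with a median of -0.46. It was -0.26 without Y482, -0.25 without Y489, -0.21 with a prior count of 2 and -0.13 without the filter. The 963 tested genes with a mean enrichment above 2 had a median of -0.30, with 31.4% positive. Gfap, the intermediate filament that marks reactive astrocytes, had 3.87, 3.90, 4.15 and 4.14 in the control and 3.70, 4.01, 3.90 and 3.93 in the PMCA mice. It was more abundant with PMCA by 1.14 in the IP and 1.27 in the input, and its enrichment differed by -0.13 with an SE of 0.16. Vim (vimentin) differed by -0.76 with an SE of 0.28, with 32 control and 118 PMCA input reads.

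**Figure D5:**
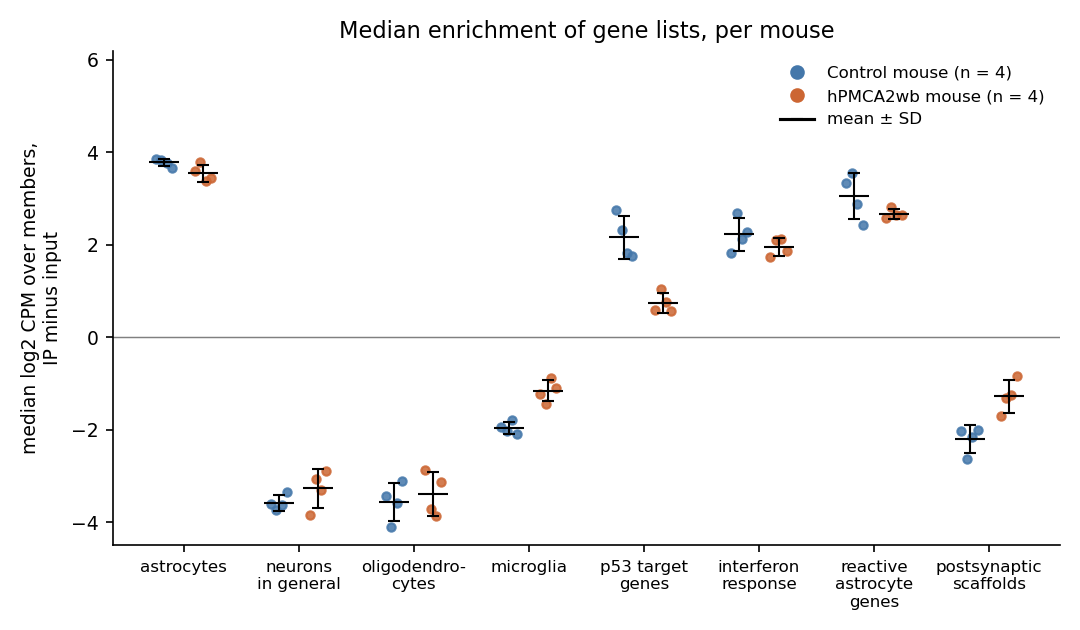
Median enrichment (log2 CPM, IP minus input) over the tested members of 8 gene lists in each of the 4 control and 4 PMCA mice, with the mean and SD. The mice do not overlap for microglial markers, p53 targets and postsynaptic scaffolds, and they overlap for the other lists shown.

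Astrocyte genes that act on synapses had a median of 0.03, with 10 positive and 9 negative differences, and the sign of this median changed in 11 of the 16 other settings, while the per-mouse median differed by -0.22. Sparcl1, a secreted protein that promotes synapses, differed by -0.09 with an SE of 0.21. Tgfb2, a secreted growth factor, and Thbs4, a thrombospondin, differed by -1.92 with an SE of 0.65 and by -1.75 with an SE of 0.79, with 11 and 4 control input reads. In the Notch pathway 4 of 11 were positive and 7 negative, with a median of -0.42 (-0.23 without Y486). Notch1 and Notch2, the receptors, differed by -0.42 and -0.68. Hes5, their target, held 0 reads in the control and 21 in the PMCA inputs, with 53 and 63 in the IP. Its enrichment was at least 11.4-fold in the control mice, with the group's input set at 3 reads, and 2.32-fold in the PMCA mice. The PMCA mouse Y486 also had 0 input reads, with 24 in the IP, and the 21 reads came from the other 3 mice.

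Lists of metabolism and upkeep lay near the median of all genes or below it, and 0 of their members were called. Over 16 genes of glycogen and lactate metabolism the median was -0.21. Ugp2, which makes the glucose donor of glycogen, differed by -1.07 with an SE of 0.33, and Pygb, a glycogen phosphorylase, by -0.11. Over 15 cholesterol genes it was -0.10, a sign that changed without Y482, Y489 or Y490. The sterol sensor Insig1 and the last enzyme of the pathway, Dhcr7, differed by -1.59 and -1.57, and Hmgcs1, which acts early in it, by 0.10. The 10 tubulins had 8 negative differences with a median of -0.28 (-0.12 without Y481, -0.17 without Y489 and -0.62 without Y486), among them Tubb3 at -1.18 with an SE of 0.38 and Tubb5 at -0.82. Translation factors, ribosomal proteins and the nuclear-encoded respiratory chain had medians of -0.18, -0.24 and -0.22. Single mice moved them: translation factors were at -0.09 without Y490 and -0.28 without Y485, and the respiratory chain at -0.13 without Y481 or Y482 and -0.08 without Y490. Ribosomal proteins were at -0.54 without Y486, -0.40 without Y483, -0.07 without Y481 or Y489 and -0.09 without Y490. Eef1a1, the elongation factor that brings tRNA, differed by -0.70 with an SE of 0.30, and Hspa5 and Hsp90b1, chaperones of the endoplasmic reticulum, by -0.04 and 0.06. Immediate early genes, switched on by activity, had 8 positive and 3 negative differences with a median of 0.55. It was 0.18 without Y481, 0.13 without Y485, 0.34 without Y486, 0.22 without Y489 and 0.23 without the filter. The median difference of the list was 0.13 in the IP and -0.46 in the input. Egr1, a transcription factor, had -3.93, -4.80, -4.05 and -3.31 in the control and -3.22, -3.11, -2.62 and -2.88 in the PMCA mice, a difference of 1.06 with an SE of 0.35 (adjusted p = 0.803, limma). It held 475 control and 375 PMCA input reads.

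Within the IP libraries alone, where PMCA and control mice were compared without the inputs, 25 genes were higher (0.309%) and 9 lower (0.111%) at an adjusted p under 0.05 (limma). Of these 34, all 3 genes called in the difference of enrichment were members. An unadjusted p under 0.05 in that difference (limma) was found for 20, against 440 of all 8091 tested genes. The IP difference is part of the difference in enrichment, so this overlap is built in and adds no support to either comparison. Among the 34, the input moved with the same sign in 26 and the opposite sign in 8, and the median ratio of the input to the IP difference was 10.9%. In 6 the input difference was at least 50% of the IP one with the same sign, among them Igfbp5, Oasl2, Lgals3bp, Sulf2 and Ctsz, named after their values were seen. Oasl2, an interferon-induced protein, differed by 1.37 in the IP and 1.54 in the input, and Lgals3bp, a secreted galectin ligand, by 1.15 and 1.07. Cdkn1a differed by -2.26 in the IP and -0.15 in the input. This count moved from 14 without mouse Y483, 17 without Y482, 19 without Y489 and 21 without Y490 to 51 without Y487.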

How the data were processed

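RNA was measured in 16 libraries, an input and an IP library from each of 8 mice. Per the labels, libraries were stranded and depleted of ribosomal RNA. The submitters' processing notes name the mm10 build, STAR, HTSeq, edgeR and limma, but no settings. The authors deposited log2 CPM for each gene in each library. All of them were whole multiples of 1 read within 0.01 reads once the prior count of 0.25 was removed, and reads are given from there. Reads carry no molecular identifiers.

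A gene was tested if 4 or more libraries reached the CPM of 10 reads in a library of median size, with at least 15 reads in all. The deposited log2 values were fitted with limma 3.58.1 (R 4.3.3, statmod 1.5.0), with a term for each mouse, for IP and for IP by treatment, then eBayes with trend and robust settings and Benjamini-Hochberg adjustment. Differences are on the log2(CPM + prior) scale, which understates or overstates those of genes with few reads. The block is the mouse, as both libraries come from its lysate. Deviations of the 2 libraries of a mouse from their group means correlated with r from 0.044 to 0.321 over 1677 genes. The fit was tested on simulated data.

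Named genes were Atp2b2, Slc6a11 and Rab11a, the 24 genes of lowest p, and in each of 40 lists up to 2 tested members per direction with an unadjusted p under 0.05 and the 2 most abundant. The members and lists were chosen with earlier results of these data known. Counts over list members cover the tested members. None of the 15 mitochondrially encoded genes searched for was among the listed names, and 21 names turned into dates were left unnamed. Symbols, coordinates and promoters came from RefSeq (GRCm38.p6). Some genes that the rule names are not reported here.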

Additional observations from a re-analysis of the deposited data

Results flagged for a closer look

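In the differences of enrichment, 3 genes stood apart between treatments by the test itself: Atp2b2 (2.11), 9430020K01Rik (2.30) and Peg3 (1.56). Ccnk (2.10) and Dkc1 (2.39) were negative in all 4 control mice and positive in all 4 PMCA mice, but their difference did not pass (adjusted p = 0.46 and 0.594, limma).

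Single mice lay far from the other 3 of their group in 12 of 274 groups examined, and chance flags about 1 in 20. In the PMCA group these were the enrichments of Ifit3 (3.22) and C1qa (-2.10) in Y487, C1qc in Y490 (-0.21), S1pr1 in Y489 (2.86), and Ugp2 (2.58) and Dhcr7 (0.80) in Y486. In the control group they were Zswim6 (-1.33), Mbp, the myelin basic protein (-4.06), and Srebf2, a regulator of cholesterol genes (1.75), in Y481, Ldha, a lactate dehydrogenase, in Y482 (1.24), Zmat3 in Y483 (0.12) and Slc38a3 in Y485 (3.80). Mouse Y481 has the shallowest input library, and the part of depth was not tested.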

How the results depend on the processing

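The 3 calls were the same genes without the replicate block, without a filter, with a mean of 10 reads as the filter, with a prior count of 2, with library totals or median-of-ratios sizes, and with voom. With plain moderation 0 genes were called in all and 0 higher. Leaving out 1 mouse gave 2 to 3 called, 2 to 3 higher and 0 to 1 lower genes. Without the replicate block the count stayed at 3 called, and the paired and unpaired fits made the same calls. With library totals, 151 genes were higher and 331 lower at an unadjusted p under 0.05 (68.7% lower, against 57.7%), and the median of all tested genes was -0.09. Without Y481 that median was 0.01. Of 1984 values of named genes under alternatives, 75 changed sign, all in genes not called and none larger than 0.62 in size after the change. Without the filter the difference of the median was 0.26 for oligodendrocyte precursor markers, against 0.75 with it, and 1.13 for microglia, against 0.81; the cause was not tested. The slope difference ranged from -0.114 to -0.079 without 1 mouse. Its alternatives, those of the IP counts and the floor of 3 reads were chosen after seeing the data.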
